A study of Homo sapiens with 12 samples.

Results

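The genes described here were 45 splicing factors and heterogeneous nuclear ribonucleoproteins (hnRNPs), taken from a fixed list of gene symbols that covered SR proteins, hnRNPs and other RNA-binding proteins of the nucleus. Membership rested on the symbol alone, but the list was drawn up with earlier results of these data known. All 45 were found among the 38716 gene symbols of the deposited tables and all 45 passed the filter on low counts in RNA-seq, in Ribo-seq and in both together. They were made up of 12 SR and TRA2 proteins, 15 genes named HNRNP, 5 hnRNP proteins known under other names, 7 other RNA-binding proteins and 6 core spliceosome components. Of these, PTBP1, SRSF7, TRA2B, PNN and RBMX had been named by the study as partners of the chromatin protein HMGB1 that decline in senescence, a choice made on related samples of the same cells, so their direction here is not independent evidence.

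Cells were IMR90, a line of primary human fetal lung fibroblasts, either proliferating or grown by serial passage until they stopped dividing (replicative senescence). There were 3 lysates per state. From every lysate, ribosome-protected fragments were sequenced as 1 Ribo-seq library and poly(A)-enriched RNA from a part of it as 1 RNA-seq library, which made 12 libraries in 4 groups of 3. All lysis buffers contained cycloheximide, which holds ribosomes in place on the mRNA. The labels call the 3 lysates independent and name 2 isolates of the line, I90-10 and I90-79, without tying them to lysates, and the file names of the proliferating RNA-seq libraries carry a tag resembling DMSO that the labels do not mention. The comparison between states asked which of the 45 mRNAs differed in level, in ribosome footprints and in footprints per mRNA.

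SR proteins carry arginine- and serine-rich domains, bind exonic sequences and promote the use of nearby splice sites. hnRNPs coat nascent pre-mRNA, often favour exon skipping, and also act in mRNA export, stability and translation. The core spliceosome recognises the branch point and both ends of the intron, and cuts and joins the RNA.

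RNA-seq libraries held 7895187 to 14133300 reads on mRNAs, and Ribo-seq libraries held 54323 to 1718431 reads on coding regions. Proliferating 1 (54323 reads) and senescent 2 (54587 reads) were by far the shallowest Ribo-seq libraries. In these, 3 counts correspond to 52.1 and 52.7 counts per 1000000 reads (CPM, scaled by TMM factors), whereas in the other 4 they correspond to 1.79 to 5.83 CPM, and 11 and 29 of the 45 genes, respectively, had under 10 footprints. All 9 fibroblast markers were present, with summed mRNA levels of 31490 to 35420 CPM in proliferating and 29900 to 34650 CPM in senescent cells, sums that COL1A1 and COL1A2 dominate. Of these markers 7 passed the test, VIM, FN1, THY1 and LUM higher (log2 fold changes 0.12 to 0.46) and COL3A1, DCN and PDGFRB lower (-0.93, -0.60 and -0.34). Of the defining epithelial and endothelial markers, EPCAM and CDH1 stayed near 1 CPM or below and CDH5 was at 0 in every RNA-seq library. The 4 epithelial markers summed to 293.0 to 311.6 CPM in proliferating and 237.5 to 260.7 CPM in senescent cells, with KRT8 and KRT18 lower. The 4 endothelial markers summed to 0.610 to 0.684 CPM and 0.823 to 1.03 CPM, and the leukocyte markers to 19.1 to 21.2 CPM and 32.0 to 35.2 CPM, with CD68 higher. The part of these cell type markers in the results was not tested. Markers of state followed the labels, with mRNA log2 fold changes of 1.60 for CDKN1A, -2.84 for LMNB1 and -2.30 for MKI67.

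Several of these genes have near-identical copies elsewhere in the genome, which bears on what a read count for them means. For each gene, the share of 30-base stretches of its coding sequence that also occur in another gene was computed on GENCODE v44lift37 (GRCh37). The median over the 45 genes was 3.23%, 14 genes had none, and HNRNPA3 (93.8%), HNRNPA1 (89.7%), RBMX (83.1%), HNRNPC (82.2%) and HNRNPK (66.6%) shared more than 50%. U2AF1 (chr21:44513066-44527680, minus strand, GRCh37) and its duplicate U2AF1L5 were listed with equal read numbers in 6 of 6 libraries of both types, 2002 RNA-seq and 343 Ribo-seq reads each. HNRNPA1 (chr12:54673977-54680872, plus strand) received 57.9% of the RNA-seq reads given to it and HNRNPA1L2 together. It received 61.1% of those given to it and a further copy, HNRNPA1P10, and RBMX received 66.2% of those given to it and RBMXL1. The following coding windows of 30 bases are shown because a footprint has about this length and a single base, in capitals, tells the gene from its copy. The HNRNPA1 window (coding bases 109 to 138) is at chr12:54675263-54675584, plus strand, across an intron, and the HNRNPA1L2 window is at chr13:53216736-53216765, plus strand. The RBMX window (coding bases 62 to 91) is at chrX:135961496-135961525, minus strand, and the RBMXL1 window is at chr1:89449419-89449448, minus strand (all GRCh37). The substitution is G15A in both pairs, counted from the first base of the window.
HNRNPA1: tggggaacgctcacGgactgtgtggtaatg
HNRNPA1L2: tggggaacgctcacAgactgtgtggtaatg
RBMX: agaaagctcttgaaGcagtatttggcaaat
RBMXL1: agaaagctcttgaaAcagtatttggcaaat
Reads were also summed for HNRNPA1 with HNRNPA1L2 and HNRNPA1P10, for RBMX with RBMXL1 and for U2AF1 with U2AF1L5. The log2 fold changes of mRNA and footprints were then -1.53 and -1.20 for HNRNPA1, -1.27 and -1.49 for RBMX, and -0.99 and -0.04 for U2AF1. Coding stretches of HNRNPA1 and RBMX occur in 82 and 6 other genes, most of which were not summed. No copies were summed for HNRNPA3, HNRNPC and HNRNPK. U2AF1L5 adds the same counts again, so its sum is no check.

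At the mRNA level, splicing factor and hnRNP genes were lower in senescent cells nearly throughout. Of 45 genes, 43 fell and 0 rose (edgeR's quasi-likelihood test, adjusted p under 0.15, the false discovery rate of the study), with 0 higher also at an unadjusted p under 0.05 and by DESeq2. Among all 12787 genes tested, 73.6% passed, 37% lower and 36.6% higher, and DESeq2 called 42 of the 45 as lower and 68.2% of all genes in either direction. The median log2 fold change of the 45 was -0.78, a 1.72-fold lower level in senescent cells, beside -0.01 over all genes. In 42 genes the 3 senescent libraries all lay below the 3 proliferating ones, against 34.2% of all genes tested (33.5% were separated in the other direction). The share of mRNA reads taken by the 45 genes was 0.932 to 0.999% in proliferating and 0.520 to 0.540% in senescent libraries. In these bulk libraries, fewer cells with a transcript and less of it per cell cannot be told apart.

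Levels per kilobase of coding sequence placed all 45 mRNAs above the median of 11410 genes in both states. Those genes had passed a minimum level per kilobase in proliferating RNA-seq. Levels per kilobase use coding reads only, scaled to the library's coding reads without TMM factors, unlike the CPM given elsewhere. In proliferating cells the 45 ranged from 50.8 CPM per kilobase for SF3B3, a subunit of the SF3b complex of the U2 snRNP, to 788.7 for HNRNPA2B1. Their median was 160.7 beside 19.2 for the 11410 genes. In senescent cells the median was 87.6 CPM per kilobase beside 18.1 for the 11410 genes. HNRNPA2B1, PCBP2 and HNRNPK were the most abundant per kilobase in proliferating cells (788.7, 592.6 and 457.6 CPM per kilobase) and stood at 355.8, 338.9 and 313.3 in senescent cells.

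**Figure D1:**
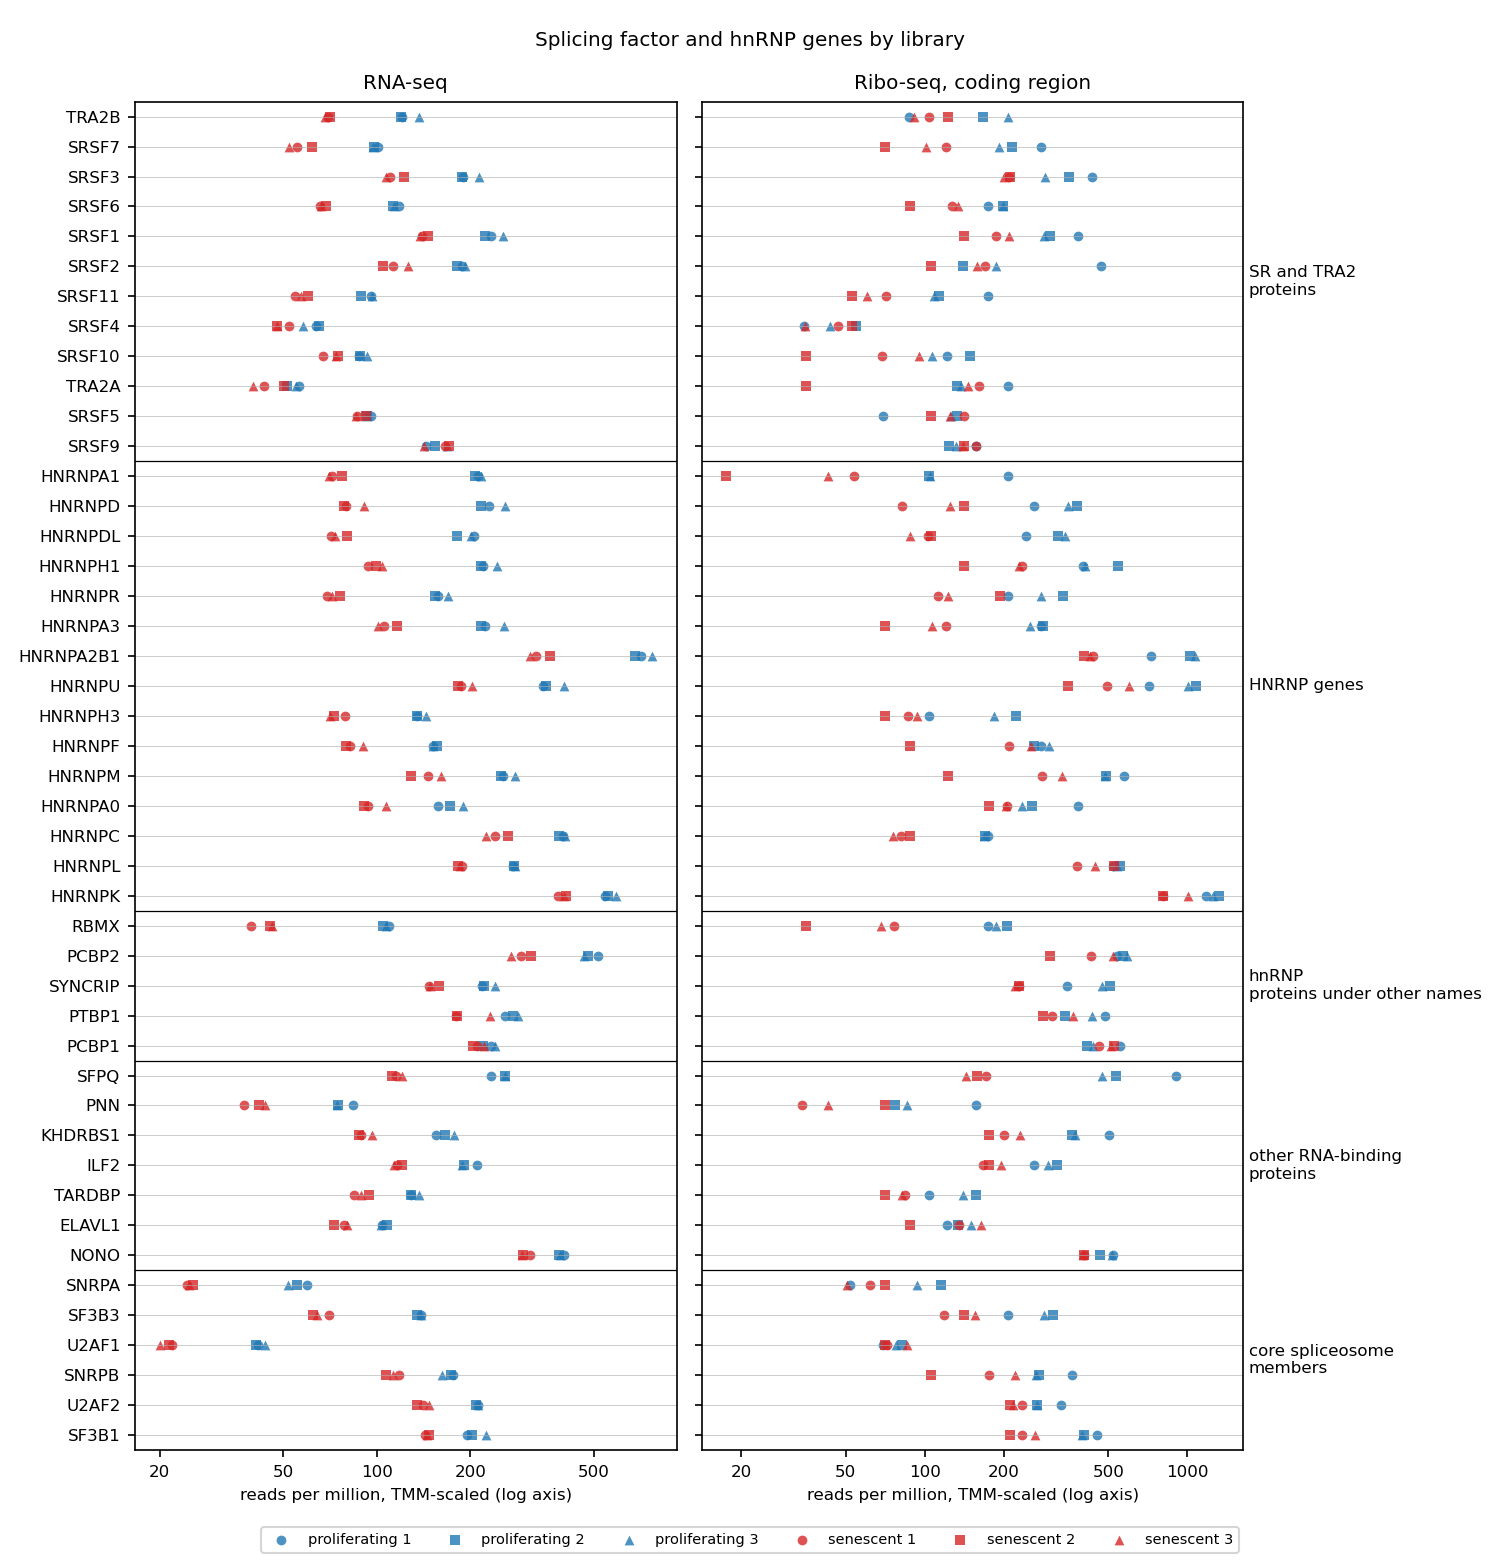
Levels of the 45 genes in every library, as TMM-scaled CPM on a log axis, with RNA-seq on the left and Ribo-seq coding-region reads on the right; blue points are proliferating and red points senescent lysates, symbols mark the lysate number, and black lines separate gene groups. In RNA-seq the senescent points lay left of all proliferating points in 42 genes, and in Ribo-seq in 33.

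Among the 12 SR and TRA2 proteins, 10 mRNAs fell, with a median log2 fold change of -0.71. SRSF5 and SRSF9 did not pass the test. SRSF9, an SR protein with a short RS domain, measured 144, 154 and 168 CPM in proliferating and 166, 171 and 142 CPM in senescent cells (log2 fold change 0.04 ± 0.08 SE, adjusted p = 0.68). SRSF5 measured 95.8, 93.3 and 92.2 CPM against 86.5, 92.3 and 85.8 CPM (-0.09 ± 0.07, adjusted p = 0.30). The states overlapped in both genes. TRA2A, a Tra2-type activator of exon inclusion, measured 56.3, 51.2 and 55.0 CPM and then 43.3, 50.4 and 39.9 CPM (-0.27 ± 0.09, adjusted p = 0.0097). SRSF10, a splicing repressor when dephosphorylated, measured 87.3, 88.6 and 92.7 CPM against 67.1, 75.2 and 73.7 CPM (-0.31 ± 0.07, adjusted p = 0.00082). The senescent libraries of both genes lay below all proliferating ones.

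The close relative of TRA2A, TRA2B, fell further, from 120.2, 119 and 137 CPM to 69.6, 70.6 and 67.9 CPM (log2 fold change -0.85 ± 0.08, adjusted p = 1.7e-09). SRSF7, which also takes part in mRNA export, fell from 101, 97.8 and 97.2 CPM to 55.4, 61.8 and 52.0 CPM (-0.80 ± 0.08, adjusted p = 7.7e-09). In both, the lowest proliferating value was well above the highest senescent value. The remaining SR genes that fell were SRSF1 (-0.74), SRSF2 (-0.71), SRSF3 (-0.80), SRSF4 (-0.34), SRSF6 (-0.78) and SRSF11 (-0.71), all as log2 fold changes with standard errors of 0.07 to 0.08.

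All 15 HNRNP genes fell in mRNA, with a median log2 fold change of -0.94. HNRNPA1, an A/B-type hnRNP that represses exons, changed most of all 45 genes: its level was 212, 206 and 216 CPM in proliferating and 71.6, 77.2 and 70.4 CPM in senescent cells (log2 fold change -1.53 ± 0.07, adjusted p = 5.3e-14), a 2.89-fold lower level. HNRNPD (AUF1), which binds AU-rich elements and speeds mRNA decay, measured 229.6, 217 and 259 CPM against 79.6, 78.6 and 90.6 CPM (-1.50 ± 0.08, adjusted p = 6.3e-13). Its paralogue HNRNPDL, the neighbouring hnRNP gene on chromosome 4 (chr4:83343718-83351615, beside HNRNPD at chr4:83273651-83295656, both minus strand, GRCh37), measured 206, 181 and 201 CPM against 71.3, 80.2 and 73.2 CPM (-1.38 ± 0.08, adjusted p = 8.5e-13). In these genes every senescent value was far below the lowest proliferating value.

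HNRNPH1, a binder of G-rich motifs, fell from 219, 216 and 244 CPM to 93.3, 99.2 and 104 CPM (log2 fold change -1.20 ± 0.07, adjusted p = 6.3e-12). HNRNPR, which acts in mRNA transport and stability, fell from 158, 154 and 169.7 CPM to 69.2, 76.2 and 71.5 CPM (-1.15 ± 0.07, adjusted p = 9.9e-12). HNRNPA2B1, an A/B-type hnRNP with a part in mRNA trafficking, fell from 707, 678 and 767 CPM to 326, 360.4 and 311 CPM (-1.11 ± 0.08, adjusted p = 3.4e-11). The states were far apart in each of these genes, with differences many times the spread between lysates. HNRNPK, a poly(C)-binding hnRNP, changed least in this group, from 543, 554 and 588 CPM to 381, 407 and 399.5 CPM (-0.50 ± 0.07, adjusted p = 1.6e-06), still without overlap. The other 8 HNRNP genes lay between log2 fold changes of -1.11 for HNRNPA3 and -0.58 for HNRNPL.

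All 5 hnRNP proteins under other names were also lower. RBMX (hnRNP G) measured 109, 105 and 107 CPM in proliferating and 39.3, 45.3 and 46.1 CPM in senescent cells (log2 fold change -1.29 ± 0.08, adjusted p = 3.5e-12). PTBP1 (hnRNP I), a repressor of exons that binds pyrimidine tracts, measured 258, 275 and 285 CPM against 179, 181 and 231 CPM (-0.47 ± 0.09, adjusted p = 5.9e-05). Both genes separated the states, RBMX by a wide and PTBP1 by a narrow margin. The poly(C)-binding PCBP2 fell from 514, 479 and 465 CPM to 289.9, 314 and 271 CPM (-0.74 ± 0.07, adjusted p = 1.7e-08), and SYNCRIP (hnRNP Q), a relative of HNRNPR, had a log2 fold change of -0.58. PCBP1 moved least, with 233, 219 and 240.2 CPM against 210.3, 204 and 221 CPM (-0.12 ± 0.07, adjusted p = 0.12). Its states overlapped, and it passed the test in 9 of 16 alternative settings, which differ in scaling, filter, tool, threshold or libraries used. It did not pass without proliferating 1 or 3 or senescent 1 or 2 (log2 fold changes -0.12, -0.098, -0.12 and -0.10).

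The 7 other RNA-binding proteins and the 6 core spliceosome components all fell, with median log2 fold changes of -0.75 and -0.80. SFPQ, a paraspeckle protein that pairs with NONO, measured 233, 259 and 259 CPM in proliferating and 115, 112 and 121 CPM in senescent cells (log2 fold change -1.11 ± 0.07, adjusted p = 1.2e-11), while NONO had a smaller log2 fold change of -0.39. PNN (pinin), a protein of nuclear speckles, fell from 83.6, 75.0 and 74.4 CPM to 37.5, 41.7 and 43.5 CPM (-0.92 ± 0.08, adjusted p = 2.1e-09). ELAVL1 (HuR), which stabilises AU-rich mRNAs, fell from 104, 108 and 103 CPM to 78.5, 72.6 and 79.9 CPM (-0.45 ± 0.07, adjusted p = 1.1e-05). None of these 3 genes with printed levels overlapped between states. ILF2 (-0.75), TARDBP (TDP-43, -0.55) and KHDRBS1 (Sam68, -0.87) completed the group.

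Among core components, U2AF1, which recognises the AG at the 3′ end of the intron, fell from 41.5, 40.7 and 43.6 CPM to 21.9, 21.4 and 20.02 CPM (log2 fold change -0.99 ± 0.09, adjusted p = 1.8e-09). Its partner U2AF2, which binds the polypyrimidine tract, had a log2 fold change of -0.58. The SF3b subunits SF3B1 and SF3B3 had log2 fold changes of -0.51 and -1.07, the U1 protein SNRPA had -1.15 and the Sm protein SNRPB had -0.60. Across alternative settings the number of the 45 mRNAs past the threshold stayed between 42 and 44. For mRNA, shares of all genes are given only for the main test and DESeq2.

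Ribosome footprints on the coding regions were lower in senescent cells for 36 of the 45 genes and higher for 0 (edgeR, adjusted p under 0.15, with 0 higher also at an unadjusted p under 0.05 and by DESeq2). Of all 7521 genes tested, 54.4% passed, 26.9% lower and 27.5% higher. The median log2 fold change of the 45 was -0.75, a 1.68-fold lower level, and values ran from -1.85 for HNRNPD to 0.21 for SRSF9. In 33 genes the states did not overlap with senescent cells lower, against 15.7% of all genes (16.8% were separated in the other direction). The 45 genes took 1.42 to 1.59% of footprints in proliferating and 0.789 to 0.844% in senescent libraries. Both layers were lower in 36 genes, against 21.53% of the 7473 genes tested in both.

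HNRNPD had the largest footprint decrease, from 260.3, 381 and 352 CPM to 81.7, 141 and 124 CPM (log2 fold change -1.85 ± 0.18, adjusted p = 7.6e-14), a 3.60-fold lower level. SFPQ measured 902, 536 and 475 CPM in proliferating and 172, 158 and 144 CPM in senescent cells (-1.77 ± 0.18, adjusted p = 1.6e-13). HNRNPDL measured 243, 322 and 342 CPM against 103, 105 and 87.5 CPM (-1.74 ± 0.18, adjusted p = 1.8e-13). Every senescent library was below every proliferating one for each of them, and the high SFPQ value came from the shallow library proliferating 1. RBMX fell from 174, 205 and 187 CPM to 76.4, 35.2 and 68.0 CPM (-1.42 ± 0.19, adjusted p = 1.3e-09), where 35.2 CPM stands for 2 footprints and is under the floor of 52.7 CPM in senescent 2. HNRNPR fell from 208, 337 and 277 CPM to 113, 193 and 122 CPM (-1.30 ± 0.18, adjusted p = 4.6e-09). These 5 genes were the lowest of the list in footprints, and HNRNPD, HNRNPDL and RBMX were also among the 5 lowest in mRNA.

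All 15 HNRNP genes fell in footprints, with a median log2 fold change of -1.08. HNRNPA2B1 measured 729, 1027 and 1067 CPM in proliferating and 438, 404 and 424 CPM in senescent cells (-1.21 ± 0.17, adjusted p = 6.6e-09). HNRNPH1 measured 399, 543 and 407 CPM against 234, 141 and 227 CPM (-1.04 ± 0.17, adjusted p = 3.5e-07). The states were separated in both genes. HNRNPA1 measured 208, 104 and 104 CPM against 53.6, 17.6 and 42.8 CPM (-1.14 ± 0.22, adjusted p = 1.1e-05), with 17.6 CPM resting on a single footprint. HNRNPK measured 1180.0, 1315 and 1251 CPM against 811, 809 and 1005 CPM (-0.51 ± 0.17, adjusted p = 0.010) and had the highest footprint level per kilobase of the list in senescent cells, 586.7 CPM.

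Of the 12 SR and TRA2 proteins, 7 fell in footprints (median log2 fold change -0.63). SRSF7 fell from 278, 215 and 192 CPM to 121, 70.3 and 101 CPM (-0.88 ± 0.18, adjusted p = 2.8e-05), and SRSF10 from 121, 148 and 106 CPM to 69.0, 35.2 and 95.3 CPM (-0.69 ± 0.20, adjusted p = 0.0039). TRA2B fell from 86.8, 166 and 208 CPM to 104, 123 and 91.4 CPM (-0.88 ± 0.18, adjusted p = 5.0e-05), and its states overlapped through proliferating 1, where it had 5 footprints. SRSF7 and SRSF10 did not overlap between states, though in senescent 2 they rested on 4 and 2 footprints. The genes of this group that did not pass were SRSF2 (log2 fold change -0.20), SRSF4 (-0.11), SRSF5 (0.08), SRSF9 (0.21) and TRA2A (0.10).

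SRSF9 footprints were 156, 123 and 131 CPM in proliferating and 157, 141 and 140.0 CPM in senescent cells (adjusted p = 0.33), and SRSF5 footprints were 69.4, 132 and 126 CPM against 141, 105 and 124 CPM (adjusted p = 0.73). TRA2A footprints were 208, 132 and 138 CPM against 161, 35.2 and 146 CPM (adjusted p = 0.69), where the lowest value stands for 2 footprints in senescent 2. PCBP1 footprints were 555, 416 and 436 CPM against 462, 527 and 513 CPM (log2 fold change 0.15 ± 0.16, adjusted p = 0.46). All of these overlapped between states. ELAVL1 footprints were 121, 134 and 149.6 CPM against 135, 87.9 and 163 CPM (0.00 ± 0.18 on the log2 scale, adjusted p = 1.0), beside the lower mRNA given above. It is one of 7 genes, with SRSF2, SRSF4, TRA2A, PCBP1, U2AF1 and U2AF2, whose mRNA passed the test as lower while the footprints did not pass. That difference between layers was tested by the footprints per mRNA given further on, where U2AF1 alone of these 7 passed.

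The HMGB1 partners PTBP1, SRSF7, TRA2B, PNN and RBMX were lower in both layers, with median log2 fold changes of -0.85 in mRNA and -0.88 in footprints. PTBP1 footprints were 486, 341 and 435 CPM in proliferating and 305, 281 and 365 CPM in senescent cells (-0.30 ± 0.16, adjusted p = 0.13). PNN footprints were 156, 77.2 and 85.3 CPM against 34.2, 70.3 and 42.8 CPM (-1.17 ± 0.24, adjusted p = 4.4e-05). PTBP1 overlapped between states and PNN did not, though the PNN value of 70.3 CPM in senescent 2 stands for 4 footprints. HMGB1 itself had log2 fold changes of -1.38 in mRNA and -1.54 in footprints.

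Smaller footprint decreases that passed at the threshold of 0.15 lost it in several settings. PCBP2 measured 538, 567 and 589 CPM against 431, 299 and 519 CPM (log2 fold change -0.35 ± 0.16, adjusted p = 0.076) and passed in 8 of 15 alternative settings. HNRNPA0 measured 382, 255 and 234 CPM against 206, 176 and 204 CPM (-0.32 ± 0.17, adjusted p = 0.12) and passed in 6 of 15, and PTBP1 passed in 7 of 15. The states of PCBP2 and HNRNPA0 did not overlap. HNRNPK and SRSF10 did not pass without senescent 1 (log2 fold changes -0.41 and -0.44, adjusted p = 0.23 and 0.25), and HNRNPF did not without proliferating 3 or senescent 1 (-0.28 and -0.29, adjusted p = 0.44 and 0.38). PCBP2 was lost without proliferating 2 or 3 or senescent 1 or 2, HNRNPA0 without any library but proliferating 1, and PTBP1 without proliferating 3 or any senescent library, with log2 fold changes between -0.46 and -0.19 in these fits. By DESeq2, 25 of the 45 genes passed as lower, while 15.5% of all genes passed in either direction. Without proliferating 1 and senescent 2, 34 of the 45 passed in edgeR as lower, a fit for which the share of all genes is not given. With library totals in place of TMM factors, 38 of the 45 passed as lower, and the median of all genes moved to -0.14, with 34.2% of all genes lower of 56.2% that passed.

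**Figure D2:**
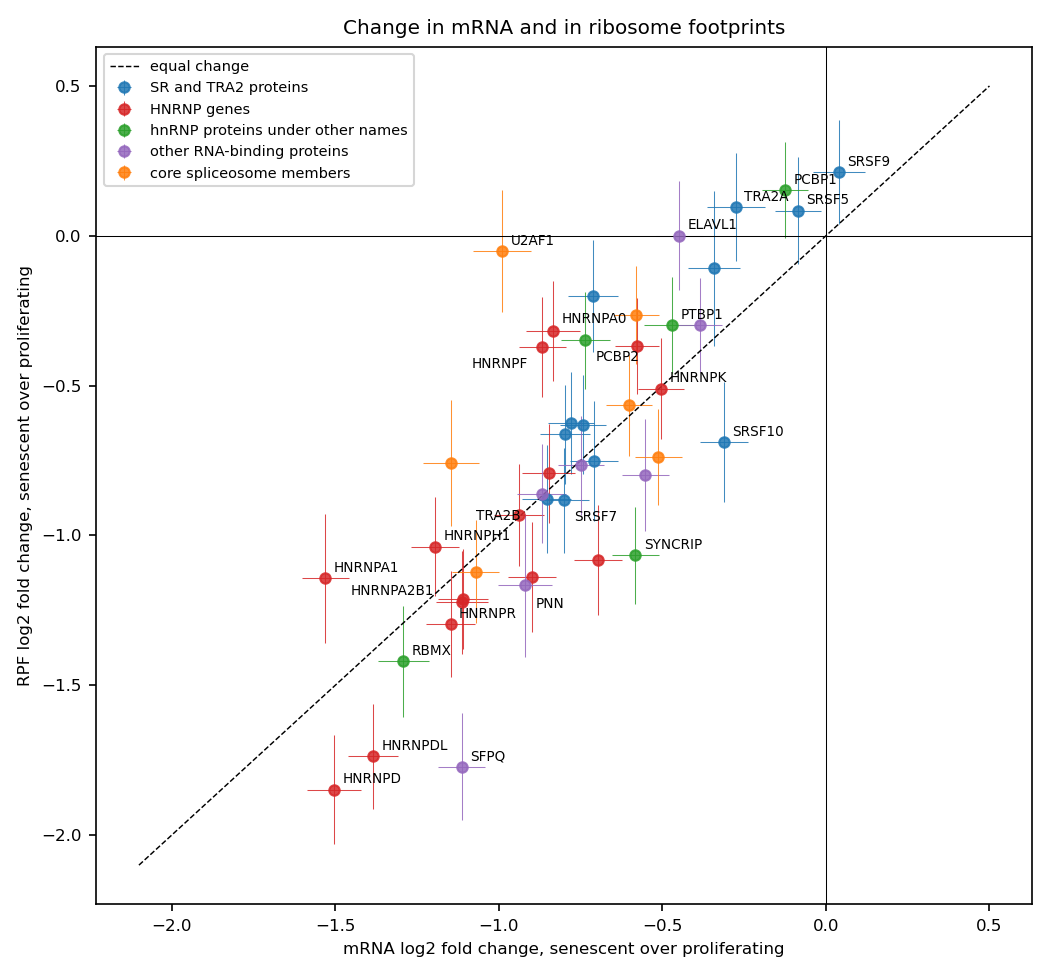
Log2 fold change of mRNA (x axis) and of ribosome footprints, RPF (y axis), senescent over proliferating, for the 45 genes coloured by group, with bars of 1 standard error and a dashed line of equal change. Nearly all genes were below 0 on both axes, 41 had the same sign in both layers, and U2AF1 and SFPQ lay above and below the dashed line.

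Footprints per mRNA, or translational efficiency (TE), showed few changes. In a model with the lysate as a block and an interaction of library type and state, 5 of 45 genes passed (edgeR, adjusted p under 0.15), 3 higher and 2 lower in senescent cells, beside 9.37% of the 7473 genes tested (4.88% higher and 4.48% lower). The states were separated with senescent lysates lower in 3 genes and higher in 2, beside 8.59% and 7.64% of all genes. The median log2 change over the 45 was 0.03, with a median standard error of 0.19, and values ran from -0.65 to 0.96. The SR and TRA2 proteins and the HMGB1 partners had 0 genes past the threshold by edgeR and by DESeq2, and 2 and 0, respectively, at an unadjusted p under 0.05 in edgeR.

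U2AF1 had the highest value. Its log2 footprints per mRNA read were 0.91, 1.02 and 0.83 in proliferating and 1.71, 1.88 and 2.11 in senescent lysates, without overlap (log2 change 0.96 ± 0.25, adjusted p = 0.014). Its footprints were 69.4, 81.6 and 77.5 CPM against 71.7, 70.3 and 85.5 CPM (log2 fold change -0.05 ± 0.20, adjusted p = 0.86), beside the lower mRNA given above, and rested on 4, 55, 130, 107, 4 and 44 reads. Summed with U2AF1L5, the log2 change was 0.96 (adjusted p = 4.2e-04). That copy adds equal counts, so the unchanged value was fixed in advance and the smaller p is no added support. Left out in turn, senescent 3 gave 0.84 (adjusted p = 0.20) and proliferating 3 gave 0.89 (adjusted p = 0.20). By analysis of partial variance, which regresses footprints on mRNA and state, the state coefficient of U2AF1 had the opposite sign and did not pass (-1.40, adjusted p = 0.82). This method called 0 of all genes tested. It fits state and mRNA together over 6 lysates, and the U2AF1 mRNA itself separated the states. Why the sign turned was not tested.

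SFPQ had the lowest value. Its log2 footprints per mRNA read were 1.97, 1.05 and 0.87 in proliferating and 0.58, 0.58 and 0.26 in senescent lysates, again without overlap (log2 change -0.65 ± 0.19, adjusted p = 0.036). Without senescent 3 it was -0.53 (adjusted p = 0.37), without senescent 1 it was -0.80 (adjusted p = 0.15, just over the threshold), and without both shallow lysates it was -0.50 (adjusted p = 0.065). By partial variance the coefficient was -6.68 (adjusted p = 0.64). SFPQ had only 0.0956% of its coding stretches in common with other genes.

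The remaining 3 genes were nearer the threshold. HNRNPA0, a small A-type hnRNP, measured 1.31, 0.58 and 0.31 in proliferating and 1.14, 1.02 and 0.94 in senescent lysates (log2 change 0.55 ± 0.18, adjusted p = 0.077). HNRNPF, a relative of HNRNPH1 that binds G-rich RNA, measured 0.92, 0.74 and 0.97 against 1.35, 0.28 and 1.49 (0.48 ± 0.18, adjusted p = 0.12). By partial variance the coefficient of HNRNPA0 was -1.45 (adjusted p = 0.80), opposite in sign, and that of HNRNPF was 4.57 (adjusted p = 0.79). SYNCRIP measured 0.70, 1.20 and 0.97 against 0.64, 0.58 and 0.57 (-0.43 ± 0.17, adjusted p = 0.14). HNRNPA0 and HNRNPF overlapped between states and SYNCRIP did not. At the levels of each layer, HNRNPF mRNA went from 151, 156 and 152 CPM to 82.2, 79.8 and 90.3 CPM and its footprints from 278, 259.7 and 297 CPM to 209.7, 87.9 and 253 CPM. HNRNPA0 mRNA went from 158, 172 and 189 CPM to 93.3, 91.2 and 107 CPM. SYNCRIP mRNA went from 218, 221 and 241 CPM to 147, 158 and 148 CPM and its footprints from 347, 506 and 472 CPM to 229, 229 and 219.7 CPM.

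**Figure D3:**
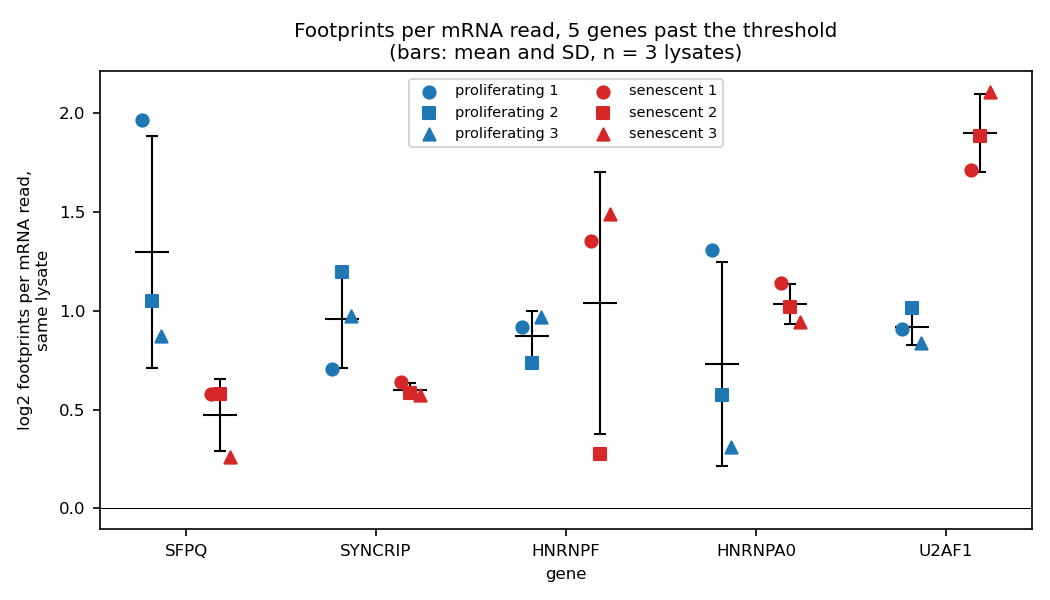
Log2 footprints per mRNA read in each lysate for the 5 genes that passed the TE test, with proliferating lysates in blue, senescent lysates in red, symbols for the lysate number, and black bars for the mean and SD of 3 lysates. U2AF1, SFPQ and SYNCRIP did not overlap between states, HNRNPA0 and HNRNPF did.

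The TE calls depended on the test. DESeq2 called 0 of the 45 genes in the same design, with 1 at an unadjusted p under 0.05, where it called 0.375% of all genes, and leaving out senescent 3 left 0 calls by edgeR, with 4 at an unadjusted p under 0.05. Over the alternative settings the adjusted p ranged from 4.2e-04 to 1.0 for U2AF1 and from 0.010 to 1.0 for SFPQ, and each passed in 14 of 18. For U2AF1 the lowest came from the sum with its equal copy. Without proliferating 1 and senescent 2, 10 genes passed, 2 lower and 8 higher, beside 13.1% of all genes. With scaling factors set jointly over all 12 libraries, 7 passed, 1 lower and 6 higher, and 3.28% of all genes were lower of 10.9% that passed. HNRNPA0 passed in 11 of 19 settings, HNRNPF in 10 of 18 and SYNCRIP in 9 of 19. Without proliferating 2 or 3 or senescent 1 or 3, HNRNPA0, HNRNPF and SYNCRIP no longer passed, and SYNCRIP also did not without senescent 2 (adjusted p from 0.17 to 0.68 over these fits).

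Within each state, footprints per mRNA read, both per length, placed most of the 45 genes above the median gene of the same lysate. In the 4 deeper lysates 36 to 39 of 45 were above it, with medians of 0.477 and 0.392 on the log2 scale in proliferating 2 and 3 (all genes 0.0853 and -0.0807) and 0.297 and 0.403 in senescent 1 and 3 (all genes -0.119 and 0.0059). HNRNPC, an hnRNP of the pre-mRNA core particle, was lowest in all 4, at -0.943, -0.983, -1.38 and -1.47. The highest were SRSF3 (1.30), SRSF1 (1.25) and, in both senescent lysates, TRA2A (1.73 and 1.64). A share of 82.2% of the HNRNPC coding sequence occurs in other genes, and how the authors placed such reads is not given in the sources used here.

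Splicing genes outside the list had a smaller median change. Of 112 further spliceosome and splicing regulator genes tested in mRNA, 91 were lower and 6 higher, beside 37% and 36.6% of all genes. Their median log2 fold change was -0.41. In footprints 63 of 107 were lower and 6 higher (median -0.45), beside 26.9% and 27.5% of all genes. In footprints per mRNA 4 of 107 were lower and 5 higher, beside 4.48% and 4.88%. That is 8.41% past the threshold, near the 9.37% of all genes. Without proliferating 2 or senescent 1, 45 and 43 of these genes passed in footprints in place of 69, and in footprints per mRNA 17 passed without proliferating 1, 3 without proliferating 3 or senescent 1, and 0 without proliferating 2 or senescent 3. Core proteins of the snRNPs were lower in 8 of 10 cases in mRNA (median -0.60), with the Sm protein SNRPF at -0.95 ± 0.09. Other regulators had 33 of 36 lower and 1 higher, the muscleblind protein MBNL2 at 0.46 ± 0.08 (adjusted p = 2.9e-05). PRP19-complex and related genes had 15 of 18 lower, with PRPF19, the ubiquitin ligase of the complex, at -0.999 ± 0.07. Tri-snRNP and LSM genes had 16 of 21 lower and 3 higher, from LSM5 at -1.08 ± 0.13 to SNU13 at 0.29 ± 0.08 (adjusted p = 0.0034).

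In the U2 and SF3 group 8 of 11 were lower, with SF3A2 at -0.65 ± 0.10. In the group of the exon junction complex 7 of 9 were lower and 1 higher, from ACIN1 at -0.62 ± 0.07 to SAP18 at 0.42 ± 0.08 (adjusted p = 7.1e-05). Kinases that phosphorylate SR proteins and their relatives had 4 of 7 lower and 1 higher, from PRPF4B at -0.70 ± 0.08 to CLK3 at 0.33 ± 0.09 (adjusted p = 0.0025). Of the genes highest in the remaining groups, SNRPA1 (-0.01), PUF60 (-0.04) and DHX16 (0.13) did not pass the test.

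The share of a gene's mRNA reads that lie in its 3′ UTR was compared as a description of transcript make-up. Over the 45 genes pooled, it was 16.6% ± 0.995 (SD, n = 3) in proliferating and 16.6% ± 1.26 in senescent cells (exact two-sided permutation p = 1.0, where 0.1 is the smallest p that 3 against 3 allows). Over all genes the share was 24.9% ± 0.219 against 27.6% ± 1.14. The states did not overlap in 7 of the 45 genes, 6 higher and 1 lower in senescent cells, beside 9.43% and 3.37% of 8211 genes. The split changed with the libraries used. Without senescent 2, 6 genes were higher and 8 lower, beside 11.1% and 13.8% of all genes, and without proliferating 1, 6 were higher and 5 lower, beside 15.3% and 6.26%. Without senescent 3, 10 were higher and 1 lower, beside 16.2% and 4.43%. The median difference was -0.34 percentage points over the 45 and 0.17 over all genes.

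HNRNPDL had the largest of these differences, with 7.58, 8.84 and 9.21% of reads in the 3′ UTR in proliferating and 12.24, 11.97 and 12.11% in senescent cells. SRSF7 had 5.69, 8.22 and 9.58% against 11.3, 10.8 and 11.4%. TRA2A had 9.54, 9.02 and 10.8% against 12.3, 13.5 and 11.9%. The senescent libraries were all above the proliferating ones in each. HNRNPA1 (22.3, 23.3 and 22.6% against 26.0, 26.5 and 23.9%), PCBP2 and HNRNPA3 shifted the same way, the last 2 by 1.38 and 1.25 points. With all libraries, U2AF2 was the gene separated in the opposite direction, from 11.2, 11.8 and 11.7% to 10.5, 10.1 and 9.38%.

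**Figure D4:**
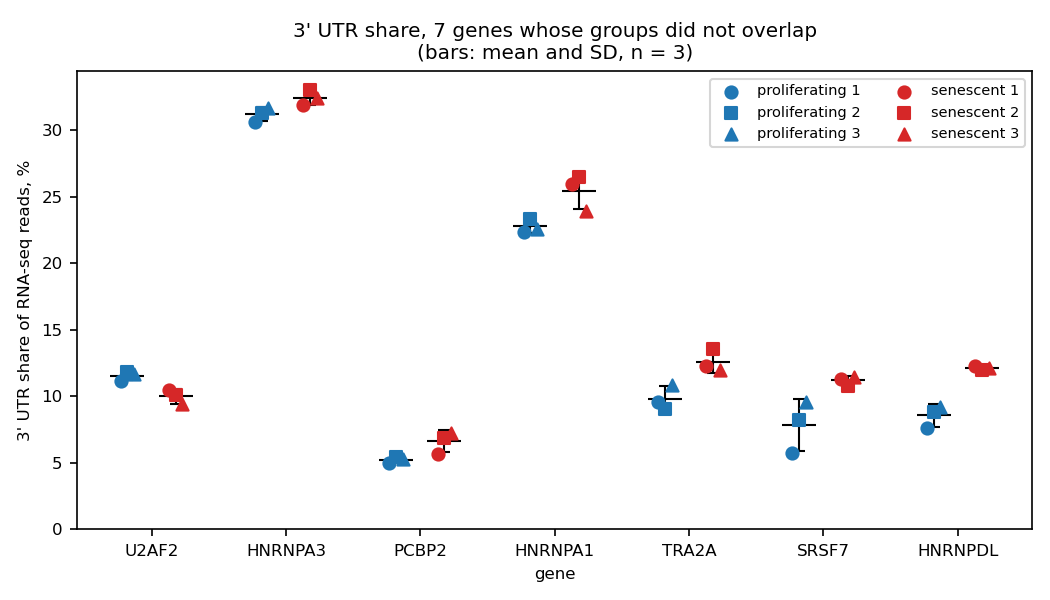
Percentage of a gene's RNA-seq reads that lie in the 3′ UTR, for the 7 genes whose states did not overlap, with proliferating libraries in blue, senescent libraries in red, and black bars for the mean and SD of 3 libraries. U2AF2 was lower in all senescent libraries and the other 6 genes were higher.

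Reads on non-coding transcripts of the same genes were few. Of the 45 genes, 30 had none in RNA-seq, and of the 8 with at least 30 such reads, SRSF3 and HNRNPDL had a higher and SRSF6 a lower share of them, relative to the gene's own RNA-seq reads, in all senescent libraries, beside 7.69% and 25.6% of 442 genes. In the GENCODE annotation, 37 of the 45 genes (82.2%) have a transcript marked for nonsense-mediated decay, a quality control that removes mRNAs with early stop codons, beside 43.3% of 15474 genes, and 36 (80.0%) have a retained-intron transcript, beside 56.0%. The tables do not resolve these transcripts.

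The promoters of the 45 genes were read from RefSeq (GRCh38.p14, 250 bases before to 50 after the start), where 39 of 45 matched, and were searched on both strands for 5 short motifs that were listed with earlier results known. CACGTG, the E-box bound by MYC and USF proteins among others, occurred in 8 of 39 genes (20.5%), beside 11.8% of 12529 genes. CCAAT occurred in 48.7% against 42.5%, CCGGAAG in 25.6% against 19.3%, GGGCGG in 69.2% against 72.1% and TTTGGCGC in 2.56% against 1.21%. The windows below show the E-box in capitals in 4 HNRNP genes that were lower in both layers, since it was the motif with the largest ratio between the 45 genes and all genes among those in more than 1 of the 45. They lie at chr4:82374001-82374030 (minus strand, 27 bases before the start) for HNRNPD, chr2:177212711-177212740 (plus strand, 71 bases before) for HNRNPA3, chr10:68331631-68331660 (plus strand, 50 bases before) for HNRNPH3 and chr19:8444921-8444950 (plus strand, 42 bases before) for HNRNPM, all GRCh38.p14.
HNRNPD: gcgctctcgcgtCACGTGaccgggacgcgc
HNRNPA3: cggaaaacgcgtCACGTGacgactggcccc
HNRNPH3: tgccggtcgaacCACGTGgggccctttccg
HNRNPM: gttgcgtcgggtCACGTGggcgcgcaggcg
The other genes with an E-box were HNRNPDL, SYNCRIP, KHDRBS1 and SF3B1, and a match to these letters is a description of the sequence and not of a bound site.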

How the data were processed

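The processed tables hold, per gene symbol and library, reads on 5′ UTR, coding region, 3′ UTR and non-coding transcripts. The values deposited by the authors are expected counts, in that reads with several placements were entered as fractions, so sums were rounded to whole numbers. Per the labels and processing notes the authors used cutadapt 1.18, Bowtie 1.0.1, SAMtools 1.8 and DESeq2 1.22.2, with no role stated, and the genome build, annotation and handling of strand are not given in the sources used here.

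For each gene with a coding-region read (16451 of 38716 symbols), mRNA was the sum of UTR and coding reads in RNA-seq and footprints were coding reads in Ribo-seq. edgeR 4.0.16 (R 4.3.3, limma 3.58.1) was run with filterByExpr, TMM factors and the two-sided quasi-likelihood test, for the states in each library type and for their interaction over 12 libraries with the lysate as a block. p-values were adjusted by Benjamini-Hochberg over all genes tested, with a threshold of 0.15. CPM are TMM-scaled. Values per lysate of footprints per mRNA use a count offset of 0.5. In edgeR, p-values and standard errors rest on a spread between lysates estimated with information shared over genes, not on each gene's own spread alone. With the lysate as a block, the test of footprints per mRNA uses the spread across lysates of the difference between library types. Floors of 3 counts cover counting error only. Replicate libraries differed by more than sampling noise. The scripts were tested on simulated counts.

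The 45 genes, the further lists and the motifs were chosen with earlier results of these data known. Full values are given for the 5 lowest and 5 highest fold changes in each layer, genes called in footprints per mRNA, the 5 HMGB1 partners and the 3 highest mRNAs per kilobase, and for the lowest and highest gene of each further subgroup, except 1 gene that is not reported here. Alternatives included DESeq2 1.42.0, other scaling, filters and thresholds, analysis of partial variance, and leaving out each replicate. Summing near-identical copies and TMM factors from genes tested in both library types were 2 alternatives added after seeing the data.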

Additional observations from a re-analysis of the deposited data

Results flagged for a closer look

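Reads on non-coding transcripts of the same genes were outside the comparisons. Of the 45 genes, 30 had none in RNA-seq and 8 had at least 30 reads. In SRSF3 they made up 3.32, 3.63 and 2.72% of the gene's RNA-seq reads in proliferating and 5.12, 3.76 and 3.71% (mean 4.19%) in senescent cells, so that every senescent library lay above every proliferating one. In HNRNPDL the shares were 2.20, 1.81 and 1.95% against 2.48, 2.32 and 2.32% (mean 2.37%), again without overlap. Both drew attention because these shares, in reads the comparisons did not use, were above those of the proliferating controls. The reads themselves did not increase, with 53, 83 and 64 reads against 56, 65 and 45 for SRSF3 and 38, 39 and 43 against 17, 26 and 19 for HNRNPDL, while the mRNA reads of both genes fell. SRSF6 was lower, with 6.33, 7.36 and 9.54% against 5.52, 5.06 and 5.62%. Among 442 genes with at least 30 such reads, 7.69% were higher and 25.6% lower without overlap.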

How the results depend on the processing

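Calls in mRNA changed little, with 42 to 43 of the 45 genes and 93 to 98 of the other splicing genes past the threshold when a replicate was left out. For footprints these ranges were 27 to 37 and 43 to 72. For footprints per mRNA they were 0 to 7 (0 without senescent 3, 1 without proliferating 3 or senescent 1, 2 without proliferating 2, 7 without proliferating 1) and 0 to 17 (0 without senescent 3 or proliferating 2, with 7 and 8 at an unadjusted p under 0.05), and genes with a separated 3′ UTR share numbered 9 to 14 (6 higher and 8 lower without senescent 2). At an adjusted p under 0.05, 2 of the 45 and 2 other genes passed in footprints per mRNA. A filter of at least 1 read gave 2 and 4. At least 10 counts in every library left 16 and 12 genes, of which 15 and 11 passed in footprints and 2 and 4 in footprints per mRNA. DESeq2 called 19 other genes in footprints, and 0 and 0 in footprints per mRNA (1 and 1 at an unadjusted p under 0.05). Analysis of partial variance called 0 and 0 (4 and 10 at an unadjusted p under 0.05). It also called 0 of all genes tested, with 540 at an unadjusted p under 0.05, so its 0 calls are not particular to these genes. Without both shallow lysates 10 of the 45 passed in footprints per mRNA. For genes past the threshold, shares of all genes are not given, here or above, for fits without 1 replicate. Nor are they given at an adjusted p under 0.05, for the count filters, or for footprints without both shallow lysates. These counts therefore do not tell a change in the listed genes from a change over all genes.

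Deviations of same-numbered proliferating and senescent libraries correlated at -0.07 to 0.09, and those of differently numbered ones at -0.13 to 0.12. Deviations from a mean of 3 libraries depend on each other, so these values do not settle whether the numbers pair the states. With a replicate block, 43 mRNAs and 30 footprint values of the 45 and 97 and 41 of the other genes passed. Without the lysate as a replicate block, 8 and 14 passed in footprints per mRNA. Shares of all genes are not given for these block settings either.

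Directions reversed in genes that had not passed. For ELAVL1 footprints they were -0.0214 with RLE factors, -0.14 with library totals, -0.0083 with at least 1 read, -0.014 with DESeq2 and -0.10 to 0.13 without a replicate. For TRA2A footprints they were -0.0413 with library totals, -0.16 with DESeq2, -0.22 with the replicate block and -0.0553 to 0.18 without a replicate. For SRSF5 they were -0.0545 in footprints with library totals, -0.0254 to 0.14 without a replicate, and 0.0599 in mRNA from coding reads. For SRSF9 mRNA they were -0.0659 with library totals, -0.0623 without shallow lysates and -0.0189 to 0.11 without a replicate. For U2AF1 footprints they were 0.0731 with the replicate block and -0.12 to 0.11 without a replicate. By partial variance, U2AF1 and HNRNPA0, which had passed in footprints per mRNA, turned to -1.40 and -1.45, and SFPQ and HNRNPF moved to -6.68 and 4.57. The cause was not tested. Depth limits footprint values most in proliferating 1 and senescent 2.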
